A study of Mus musculus with 6 samples.

Results

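The cluster of miR-182, miR-183 and miR-96 was examined in the liver of *Apcfl/fl* and *Apc+/+* mice. Its members were taken as every probe of a NanoString miRNA panel whose base name was mmu-miR-182, mmu-miR-183 or mmu-miR-96, on any arm, which gave 3 of the 599 probes. All were for the mature form without an arm suffix, and 0 probes for the opposite arms of these miRNAs were found. NanoString captures miRNAs with colour-coded probes, a few of them shared by near-identical miRNAs, and counts the captured molecules without amplification. Each member had a probe of its own. RNA was from fresh frozen liver of 3 *Apcfl/fl* mice with hepatocarcinoma (HCC) and of 3 healthy *Apc+/+* mice (control livers), all on the C57Bl/6 background. The *Apcfl/fl* mice were homozygous for a hypomorphic *Apc* allele, which lowers the amount of a negative regulator of β-catenin, and their HCC carries active Wnt/β-catenin signalling. No Cre, age or sex is given for these mice, and the controls carried no altered *Apc* allele. Whole tissue was profiled, so fewer cells of a type and less RNA per cell cannot be told apart. The comparison asked whether the cluster differed between β-catenin-driven tumour tissue and normal liver.

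The members come from a single primary transcript and act, like other miRNAs, by pairing their seed (bases 2 to 8) with target mRNAs, which are then repressed. The cluster is best known from sensory organs, where it is abundant in hair cells of the inner ear and photoreceptors of the retina, and it is also found in epithelia. MiR-182 and miR-96 are known repressors of FOXO1, a transcription factor that restrains growth and drives glucose production in hepatocytes. In human liver cancer cells β-catenin and its TCF partners have been linked to transcription of the cluster.

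The mature sequences are shown because the members differ little in the part that selects targets. They are the 5p arms from RefSeq (assembly GRCm38.p6), the arm that the older names without a suffix stand for, with the seed in capitals:
miR-182: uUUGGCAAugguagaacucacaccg
miR-96: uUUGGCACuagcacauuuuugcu
miR-183: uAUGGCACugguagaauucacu
Counted from the 5′ end, the seed of miR-96 differed from that of miR-182 by A8C alone, and the seed of miR-183 differed from that of miR-96 by U2A alone. MiR-183 differed from miR-182 at both of these seed positions, U2A and A8C. Outside the seed the order of likeness was another, with both sequences aligned at their 5′ ends and compared over the shorter length. There miR-182 and miR-183 were identical at 13 of 15 bases, while miR-96 matched miR-183 at 7 of 15 and miR-182 at 6 of 16. Among the 1679 mature mouse miRNA names in the RefSeq table, miR-1271-5p was the only other miRNA with bases 2 to 7 of miR-182 and miR-96, and it had no probe on the panel. No other entry shared bases 2 to 7 with miR-183. Sequences were found by name for 445 of the 577 mouse miRNA names on the panel, and none of these beside the members had such a seed. The remaining names were not checked.

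In GRCm38.p6 the 3 genes lie on the minus strand of chromosome 6, Mir182 at chr6:30165918-30165992, Mir96 at chr6:30169446-30169551 and Mir183 at chr6:30169668-30169737. Transcription runs from Mir183 through Mir96 to Mir182. Mir96 and Mir183 are 116 bases apart, Mir182 stands 3453 bases from Mir96, and the hairpins span 3820 bases in all. The 3 genes fall inside the long non-coding gene Mirc35hg, between the protein-coding genes Nrf1 and Ube2h. The hairpins are given in the order of transcription, with the measured mature arm in capitals:
Mir183: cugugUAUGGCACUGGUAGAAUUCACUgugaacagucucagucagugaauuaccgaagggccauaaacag
Mir96: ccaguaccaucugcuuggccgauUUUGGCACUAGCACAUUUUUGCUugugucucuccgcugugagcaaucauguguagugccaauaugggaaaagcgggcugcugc
Mir182: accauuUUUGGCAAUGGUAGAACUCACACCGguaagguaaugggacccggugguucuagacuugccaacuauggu
In each hairpin the measured arm lies in the 5′ part, starting at base 6 in Mir183, base 24 in Mir96 and base 7 in Mir182.

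The depth was 82942 to 133331 counts on mouse miRNAs per liver. The authors deposited counts that were not scaled between livers, from which a constant of each probe had been subtracted, with a lowest value of 1. Of the 599 probes, 33 were for miRNAs of mouse viruses and served as the background. Background was set at their mean plus 2 SD, which was 20, 23.3 and 14.3 counts for control livers 1 to 3. For *Apcfl/fl* livers 1 to 3 the same limit was 27.8, 13.1 and 19.2 counts. By this limit 109 of the 566 mouse miRNA probes (19.3%) were above background in all 6 livers and 311 in none. As for the tissue label, 5 of 5 hepatocyte miRNAs (miR-122, miR-192, miR-194, miR-148a and miR-101a) were above background in every liver, while 4 of 5 miRNAs of neural and sensory tissue were so in none.

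Of the 3 members, only miR-96 was above background, and it was so in all 3 livers of each genotype. The control livers had deposited miR-96 (MIMAT0000541) counts of 32.67, 28.67 and 18.67, and the *Apcfl/fl* livers had 39.67, 31.67 and 41.67. Before any scaling the highest *Apc+/+* count lay above the lowest *Apcfl/fl* count, so the genotypes overlapped. The counts stood at 1.23 to 1.64 times the limit in *Apc+/+* and at 1.43 to 2.42 times the limit in *Apcfl/fl* liver. In 4 of the 6 livers the 95% Poisson interval computed from the deposited count lay wholly above the limit. It did not in *Apc+/+* livers 2 (19.2 to 41.3 counts) and 3 (11.2 to 29.3 counts). Such an interval covers counting error only and takes the deposited value as the whole count. Because a constant had been subtracted, it can be too narrow. A single viral probe, mcmv-miR-M87-1 of mouse cytomegalovirus, reached 47.33 counts in *Apcfl/fl* liver 1, above the 39.67 of miR-96 there. In the other 5 livers miR-96 was above every viral probe, by as little as 18.67 against 18.33 in *Apc+/+* liver 3. With the limit at the viral mean plus 3 SD, miR-96 was above background in 1 *Apc+/+* and 3 *Apcfl/fl* livers.

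MiR-182 (MIMAT0000211), like miR-96 a known repressor of FOXO1, was counted 5.33, 5.33 and 2.33 times in the control livers. In the *Apcfl/fl* livers it was counted 8.33, 1.33 and 2.33 times. These counts were 0.102 to 0.299 times the limit of their own liver. Every count was also below the mean of the viral probes of the same liver, and 17 to 27 of the 33 viral probes had a count at least as high. MiR-182 was thus not detected above background in either genotype.

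MiR-183 (MIMAT0000212), whose hairpin is the first of the transcript, had 14.33, 8.33 and 3.33 counts in *Apc+/+* liver. In *Apcfl/fl* liver it had 1, 12.33 and 10.33 counts, the first of these being the lowest value of the table. The limit was not reached in any liver. The nearest was *Apcfl/fl* liver 2, where 12.33 counts stood at 0.941 times the limit and 1 viral probe was higher. The furthest was *Apcfl/fl* liver 1, where all 33 viral probes were at least as high. The livers of the 2 genotypes overlapped over nearly their whole range.

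**Figure D1:**
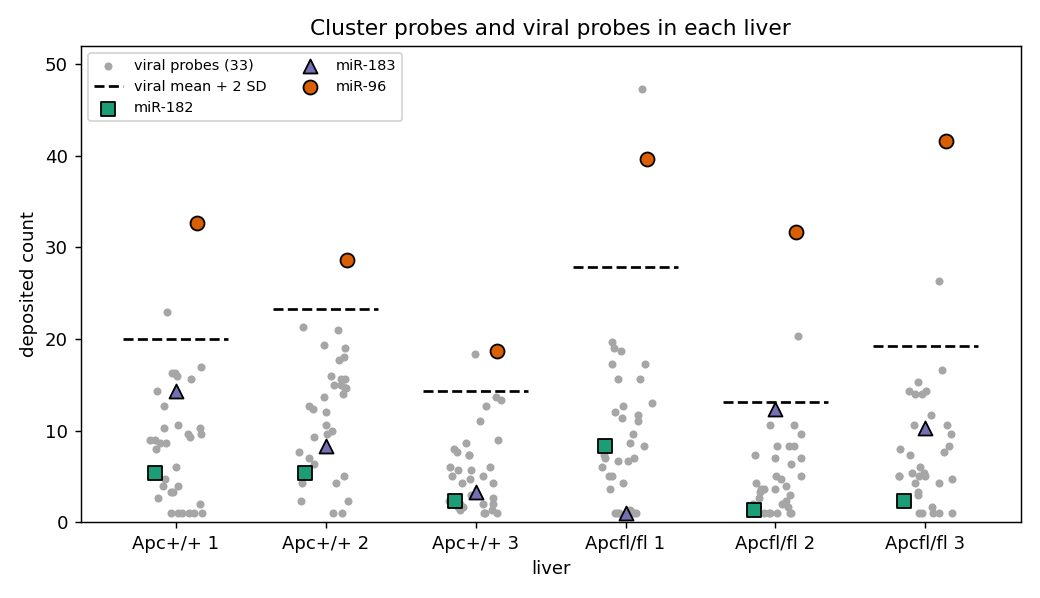
Deposited counts (y axis) of miR-182, miR-183 and miR-96 in each liver (x axis), with the 33 viral probes as grey points and their mean plus 2 SD as a dashed line. MiR-96 lies above the line in all 6 livers, and miR-182 and miR-183 lie below it in all 6, among the viral probes.

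Averaged over the 6 livers, miR-96 had 32.17 counts and ranked 127 of the 566 mouse miRNA probes, above the mean of every viral probe (the highest, mcmv-miR-M87-1, had 24.7). MiR-183 had a mean of 8.28 counts and ranked 318, with 16 viral probes higher. MiR-182 had a mean of 4.16 counts and ranked 474, with 26 viral probes higher. A count depends on how well each probe captures its target, so the order of the members by count is not an order of their amounts. As a share of counts, which is likewise not an amount of miRNA, the limit equalled 0.0108% to 0.025% of mouse miRNA counts in *Apc+/+* liver. In *Apcfl/fl* liver it equalled 0.0127% to 0.0289%. Together the 3 probes took 0.0182% to 0.0631% of mouse miRNA counts in *Apc+/+* and 0.041% to 0.0508% in *Apcfl/fl* liver, and miR-96 gave 62.4% to 81% of these counts.

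**Figure D2:**
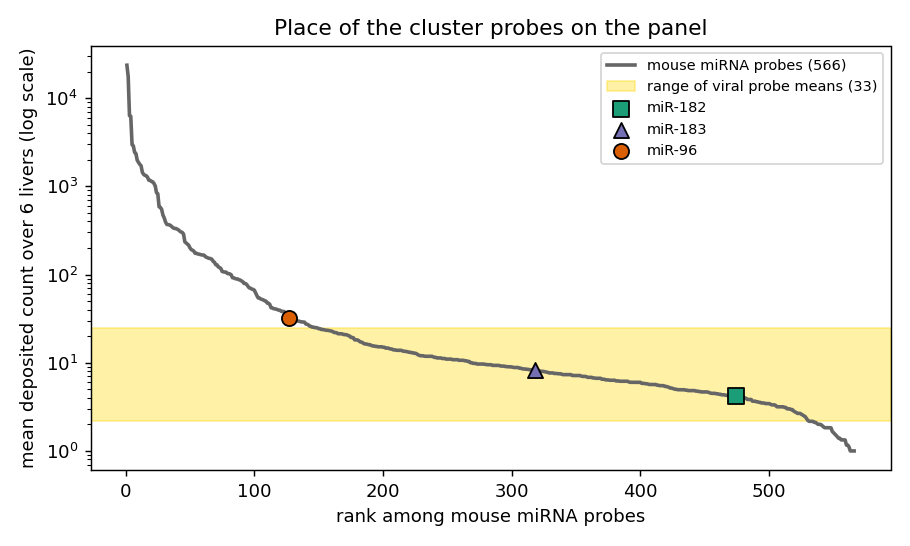
Mean deposited count over the 6 livers (y axis, log scale) of the 566 mouse miRNA probes against their rank (x axis), with the members marked and the range of the 33 viral probe means shaded. MiR-96 stands just above the shaded range at rank 127, and miR-183 and miR-182 stand inside it at ranks 318 and 474.

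For the comparison of genotypes the counts were scaled by edgeR's TMM method to a common library size and are called normalized counts. The test was limited to miRNAs that averaged 20 or more deposited counts, which 174 mouse miRNAs did, miR-96 alone among the members. Normalized counts of miR-96 were 40, 34.2 and 22.3 for the control livers, against 34.7, 32.6 and 26.6 for the *Apcfl/fl* livers. The values of the *Apcfl/fl* livers lay within the range of the *Apc+/+* livers. The means were 32.2 ± 9.06 (SD, n = 3) and 31.3 ± 4.2 (SD, n = 3). The log2 fold change of *Apcfl/fl* over *Apc+/+* was -0.05 (standard error 0.41; edgeR quasi-likelihood adjusted p = 0.95, by Benjamini-Hochberg over the 174 miRNAs). Its 95% confidence interval ran from -1.01 to 0.92 on the log2 scale, that is from 0.495-fold to 1.89-fold. Changes within this interval could not be told from none at this depth and number of mice. The exact permutation test gave the largest p possible (two-sided p = 1, n = 3 in each genotype, where the smallest p allowed is 0.1).

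None of the members was called. At an adjusted p-value under 0.05 edgeR called 0 of the 174 tested miRNAs (0%), so the absence of a call for miR-96 is what every tested miRNA showed. DESeq2 called 20 higher and 9 lower, and limma 1 higher and 3 lower, with miR-96 among none of these (its p before adjustment was 0.91 and 0.97). At an unadjusted p-value under 0.05 edgeR had 43 miRNAs (24.7%), and miR-96 was far from these, with 166 miRNAs at a smaller p-value. Normalized counts of the genotypes did not overlap for 33.3% of the tested miRNAs, and they overlapped for miR-96.

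The sign of the fold change of miR-96 had no stable direction. With the total count as library size it was 0.3, in a scaling that moved the median of all tested miRNAs from 0.01 to 0.45, so that relative to this median miR-96 was at -0.16. The fold change was also positive with no filter on low counts (0.37) and after the mean viral probe count had been subtracted (0.32). Relative to the median of these settings miR-96 was at 0.44 and 0.07, so it stayed positive there. Under all 14 alternatives that gave a value it lay between -0.15 and 0.37, and the adjusted p-value lay between 0.72 and 0.998.

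**Figure D3:**
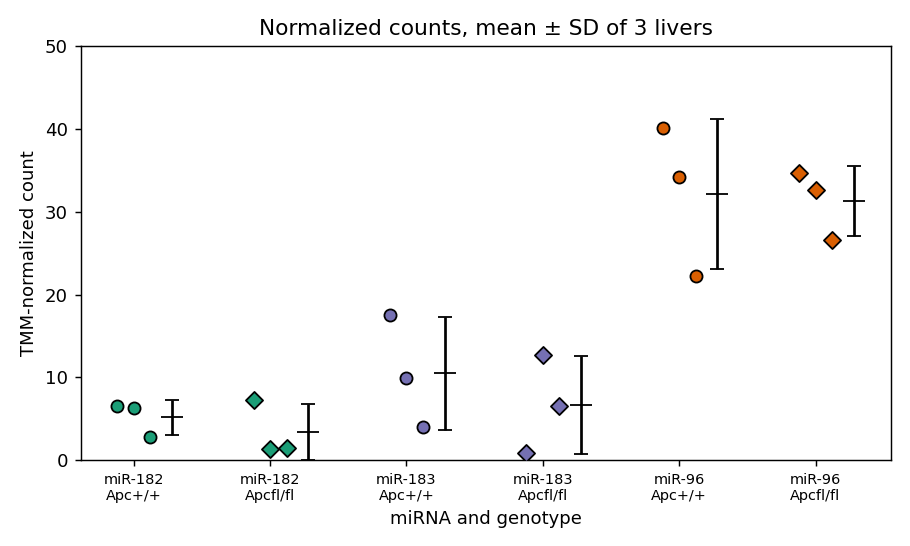
TMM-normalized counts (y axis) of each member by genotype (x axis). Points are single livers, and the bar beside them is the mean ± SD of 3 livers. The genotypes overlap for each member, and the means of miR-96 are 32.2 and 31.3.

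**Figure D4:**
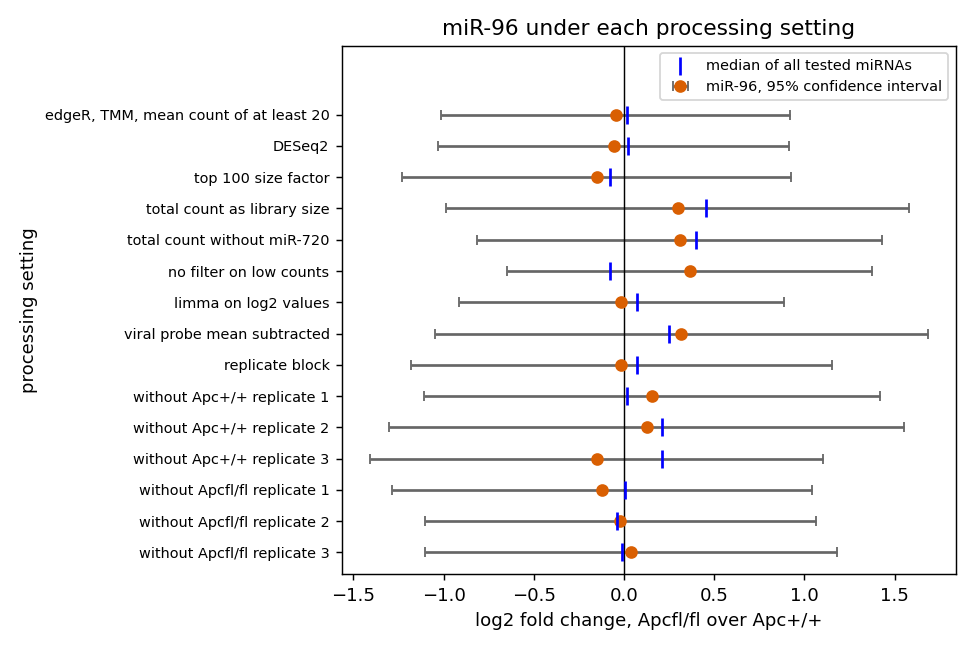
Log2 fold change of miR-96 (x axis, *Apcfl/fl* over *Apc+/+*) under each processing setting (y axis). Points are the estimates, bars the 95% confidence intervals, and blue marks the median of all miRNAs tested in that setting. Every interval includes 0, and the estimates lie between -0.15 and 0.37.

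For miR-182 and miR-183 both genotypes were under the limit in every liver, so no fold change is given. Normalized counts of miR-182 were 6.53, 6.36 and 2.78 for the control livers, against 7.28, 1.37 and 1.49 for the *Apcfl/fl* livers, with means of 5.22 ± 2.12 and 3.38 ± 3.38 (SD, n = 3 in each; two-sided exact permutation test, p = 0.4). Those of miR-183 were 17.6, 9.93 and 3.97 for the control livers, against 0.874, 12.7 and 6.59 for the *Apcfl/fl* livers, with means of 10.5 ± 6.81 and 6.72 ± 5.91 (SD, n = 3 in each; two-sided exact permutation test, p = 0.6). Adjusted over all 566 mouse probes, these permutation p-values were 0.69 and 0.82. As all these counts were under background, neither the differences nor the p-values are a measure of change. The smallest p that the permutation test allows here is 0.1. A change that kept a miRNA under the limit in both genotypes could not be seen, and neither miRNA rose past the limit in any *Apcfl/fl* liver.

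The members did not share a pattern that could be read, since 2 of them were in the background. For miR-96 the 3 tested miRNAs with the most similar profile over the 6 livers were miR-30d, miR-26a and miR-450a-5p. Likeness was the root mean square difference of log2 normalized counts, each centred on its own mean, and was 0.17, 0.22 and 0.22, against a median of 0.58 over the 173 miRNAs compared. Chosen for this likeness, they had log2 fold changes of -0.06, -0.14 and 0.05.

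Epithelial miRNAs were set beside the cluster because epithelium is a tissue in which it is found. Of 7 probes (miR-200a, miR-200b, miR-200c, miR-141, miR-429, miR-375 and miR-203), 3 were above background in no liver and 1 in all. Of the 4 tested, 0 passed in either direction, as in the whole test (0 of 174). MiR-200a, miR-200b and miR-429, which come from 1 transcript, were above background in 5, 4 and 3 of the 6 livers. Their log2 fold changes were 0.34, 0.33 and 0.74, with edgeR adjusted p-values of 0.74, 0.76 and 0.56. With control counts of 7.67, 21.67 and 15.67 against 12.67, 55.67 and 36.67, miR-429 reached the count minimum only through *Apcfl/fl* liver. As these counts lay partly within background, no shared direction is read from the 3 fold changes. MiR-203, a miRNA of differentiating epithelium and the only one above background in every liver, was counted 121, 111 and 86 times in the control livers and 85, 59 and 135 times in the *Apcfl/fl* livers. On the log2 scale miR-203 stood at -0.79 (standard error 0.29; edgeR adjusted p = 0.15). Its genotypes overlapped in deposited counts and did not overlap after TMM scaling, as for 33.3% of the tested miRNAs. The epithelial miRNAs miR-375, miR-141 and miR-200c were within background in both genotypes.

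Among 15 probes for miRNAs often raised in liver cancer, 10 were tested and 0 passed in either direction, as in the whole test (0 of 174). Some of these reached the count minimum through the *Apcfl/fl* livers alone, such as miR-675-3p with 4.67, 3.67 and 6.67 counts against 66.67, 25.67 and 38.67, so no summary over the list is given. Of these probes 6 were above background in every liver, and the largest counts were those of miR-21, a miRNA raised in many tumours. MiR-21 was counted 2127.33, 2583.33 and 3477.33 times in the control livers and 10388.33, 7482.33 and 11929.33 times in the *Apcfl/fl* livers. The genotypes did not overlap in these counts or after TMM scaling, where 33.3% of the tested miRNAs did not overlap. The log2 fold change of miR-21, 1.31 (standard error 0.24), had an edgeR adjusted p of 0.056. The other 5 were miR-25 (1.01), miR-106b (0.88), miR-93 (0.22), the probe shared by miR-20a and miR-20b (-0.17) and the probe shared by miR-106a and miR-17 (-0.19), with adjusted p-values of 0.056, 0.16, 0.72, 0.64 and 0.72. The sizes of these fold changes were not tested against that of miR-96.

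**Figure D5:**
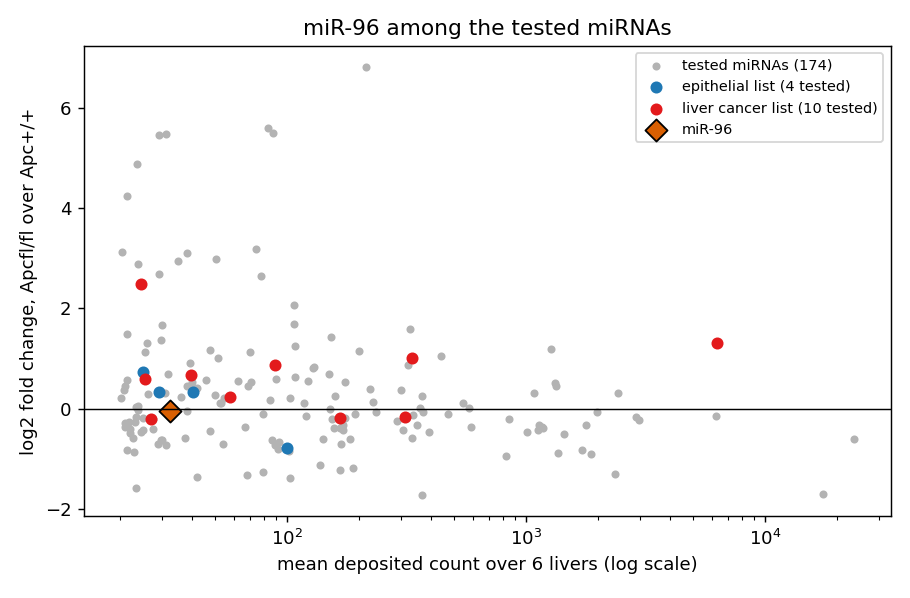
Log2 fold change (y axis, *Apcfl/fl* over *Apc+/+*) of the 174 tested miRNAs against their mean deposited count over the 6 livers (x axis, log scale). MiR-96 lies at a mean of 32.17 counts and a fold change of -0.05, near the median of all tested miRNAs (0.01), and the tested members of the epithelial and liver cancer lists are coloured.

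Marker miRNAs of other cells were summed in the same livers. The summed normalized count of the 5 hepatocyte miRNAs was 27179 to 42480 in *Apc+/+* and 9147 to 15242 in *Apcfl/fl* liver. That of the 5 leucocyte miRNAs was 167 to 358 and 236 to 619, and that of the 5 neural and sensory miRNAs, of which 0 were above background in all livers, was 48.2 to 63.6 and 11.7 to 35.2. The 5 mesenchymal miRNAs summed to 868 to 1280 and 313 to 704, the 2 endothelial miRNAs to 3482 to 3698 and 2685 to 3451, and the 3 red cell miRNAs to 832 to 1363 and 773 to 4431. The hepatocyte, neural and sensory, mesenchymal and endothelial sums were lower in every *Apcfl/fl* liver than in any control liver, and the others overlapped. Among single tested miRNAs, 33.3% did not overlap. The neural and sensory sum was of counts near background, so it is no measure of those miRNAs. In the endothelial list miR-126-5p was lower without overlap and miR-126-3p overlapped. In the mesenchymal list miR-143 and miR-145 were lower without overlap, while miR-199a-3p and miR-199a-5p overlapped. Shares of all mouse miRNA counts were an alternative to TMM scaling chosen after seeing the data. By these, the hepatocyte list alone of the 6 lists was still lower without overlap (26.7% to 33.9% against 10.9% to 15.9%). Most of the hepatocyte sum was miR-122, with a mean normalized count of 29012 in control and 8895 in *Apcfl/fl* liver. The deposited counts of miR-192, miR-194 and miR-101a overlapped between genotypes, so the share of the list does not speak for each member. None of the tested miRNAs of these lists passed in either direction, which any list would have shown, as edgeR called 0 of the 174 tested miRNAs. The part of these cell types in the level of miR-96 was not tested.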

How the data were processed

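Estimated counts per probe were deposited by the authors, not scaled between livers. The values show that a constant of each probe had been subtracted (584 of 584 probes with at least 2 values above 1 shared a single decimal part) and that 1 was the lowest value. Software and normalization are not given in the sources used here. Genotype and replicate came from the labels, and every value column belonged to 1 liver (0 without a sample). The labels number 3 replicates per genotype, and each was taken as a separate mouse.

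Counts were rounded. Mouse probes averaging 20 or more counts were tested with edgeR 4.0.16 (quasi-likelihood, TMM over the tested miRNAs, Benjamini-Hochberg over 174) in R 4.3.3. Permutation tests used log2 of the normalized count plus 2. TMM factors were 0.655 to 1.25, and miR-720 took 15.7% to 33% of counts. Within a genotype the chi-square per degree of freedom between 2 livers was 17.2 to 89.1, so none was a duplicate. A run on simulated counts checked only that the code recovers built-in changes, and it does not bear on the results here. Alternatives were DESeq2 1.42.0, limma 3.58.1, other library sizes, filters, viral subtraction, a replicate block and each liver left out. RefSeq names (GRCm38.p6) were found for 445 of 577 mouse miRNA names. The deposited table holds no probe sequence, so the arm was taken from the name.

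The miRNAs named were all members, those sharing bases 2 to 7, the 3 most similar to a member with a mean count of at least 20, and epithelial, liver cancer and cell marker lists written from general knowledge. Members of the epithelial and liver cancer lists are given with values where above background in every liver. MiR-200a, miR-200b, miR-429 and miR-675-3p are given beside them although they were not above background in every liver. The members and lists were chosen with earlier results of these data known.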

Additional observations from a re-analysis of the deposited data

How the results depend on the processing

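MiR-182 and miR-183 were under background in all 6 livers with each limit tried. MiR-96 was above it in 1 *Apc+/+* liver with the viral mean plus 3 SD, and in 2 or 3 livers of each genotype with the highest viral probe or a fixed limit of 20 counts. Its log2 fold change (-0.05) turned positive with the total count (0.297), the total count without miR-720 (0.308), no filter (0.37) and viral subtraction (0.32). With 1 liver left out it ranged from -0.15 to 0.15, positive without *Apc+/+* replicate 1 or 2 or *Apcfl/fl* replicate 3. A count minimum of 60 left it untested. The log2 difference in normalized count that entered the permutation test of miR-183 is no measure of change, as its values were under background. It was -0.65, turned to 0.28 with viral subtraction, and leaving out 1 liver gave -1.14 to 0.011, the latter without *Apcfl/fl* replicate 1. The causes were not tested.

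The number of mouse miRNAs with an adjusted p-value under 0.05 (0 higher, 0 lower, 43 at an unadjusted p-value under 0.05) was 20 higher and 9 lower for DESeq2, 1 and 3 for the size factor of the top 100, 16 and 1 for the total count, 18 and 3 for that total less miR-720, 12 and 6 with a count minimum of 60, 1 and 3 with limma, and 9 and 6 with viral subtraction. It was 0 and 0 with no filter. With 1 liver left out it ranged from 0 to 11 higher and from 0 to 8 lower, the highest without *Apcfl/fl* replicate 3. Livers of the same number did not deviate together (r = -0.06, -0.05 and 0.12). With the replicate number as a block, 4 were higher and 3 lower, and miR-96 had a log2 fold change of -0.02. The depth behind the only detected member was 18.67 to 41.67 counts.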
